A study of Homo sapiens with 12 samples.

Results

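Lysosomes are acidic compartments in which hydrolases break down proteins, glycans and lipids, and autophagy is the route by which a cell encloses its own cytoplasm in a membrane and delivers it there. A proton pump keeps the lumen acidic, membrane proteins export the products, and the transcription factor TFEB, when it is not held in the cytoplasm by mTORC1, turns on many lysosomal and autophagy genes through an E-box. In tumour cells the pathway is known for recycling nutrients under stress and for trapping weakly basic drugs.

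A list of 35 genes of this pathway was followed, chosen by symbol. Of these, 34 had a probe set that carries their symbol alone, and GLB1, a beta-galactosidase, was left out because its probe set is shared with another gene. Each gene was represented by its probe set with the highest mean, and 34 of 34 lay above the filter on low values, among 14649 genes tested of 19775 with a probe set.

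The cells were A549, an established line from a human lung adenocarcinoma. Flow sorting after staining with Hoechst 33342 (5 µg/ml, 90 min) separated cells that export this dye, called the side population (SP), from non-SP cells that retain it. The labels also list propidium for every sample. The 4 groups were untreated non-SP, untreated SP, anti-EpCAM non-SP and anti-EpCAM SP, with 3 biological replicates each. Treated cells had received a monoclonal antibody, named anti-mouse EpCAM in the labels, at 100 µg/ml for 48 h before staining. The labels leave unclear if mouse refers to its host or to its target, they name no control antibody for the untreated groups, and A549 is a single line. RNA from each sample (200 ng of total RNA) was hybridised to 1 Affymetrix expression array, and values are deposited as log2 expression, so a difference of 1.00 is a doubling.

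The comparison of SP with non-SP cells was made within 6 pairs, each made of an SP and a non-SP array that share treatment and replicate number. The efflux pump gene ABCG2, a known side population gene, was higher in SP cells by 0.49 ± 0.06 (SE, 6 pairs; adjusted p = 0.00375 in limma with Benjamini-Hochberg adjustment) and in 6 of 6 pairs. EPCAM was also higher in SP cells, by 0.26 ± 0.06 (SE, 6 pairs; adjusted p = 0.0435 in limma) and in 6 of 6 pairs. Epithelial markers, EPCAM among them, ran from a mean of 6.01 for CLDN4 to 14.55 for KRT18, with 7 of 7 above the filter value of 5.39. Of 11 leukocyte and macrophage markers measured, 5 lay above it: CD14 (6.83), CD3E (6.71), CD74 (6.35), ITGAM (6.26) and MARCO (5.46). PTPRC (4.31), TYROBP (4.62), CSF1R, LYZ, CD163 and MRC1 lay below. Of 8 fibroblast markers, 5 lay above the filter. Of these, COL1A1 was lower in SP cells, at -0.57 (adjusted p = 0.00966 in limma). COL1A2 (0.13), DCN (-0.05), PDGFRB (-0.06) and THY1 (-0.02) did not pass. COL1A1 was the brightest of the 8, with a mean of 9.28, and THY1 the next, with 6.36. The log2 of the summed fibroblast markers ran from 9.14 to 10.8 in untreated non-SP, from 9.12 to 10.4 in untreated SP, from 9.27 to 11.0 in anti-EpCAM non-SP and from 8.92 to 10.4 in anti-EpCAM SP arrays. COL3A1 (4.98), PDGFRA (5.13) and LUM (3.74) lay below the filter, and the part of these markers in the results was not tested.

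Over both treatments, NPC2, the lumenal carrier that hands cholesterol to NPC1, and WIPI1, which binds phosphatidylinositol 3-phosphate on forming autophagosomes, were lower in SP cells. CTSZ, a lysosomal cysteine carboxypeptidase, was higher. These were 3 of 34 members (8.82%) at an adjusted p under 0.05, 1 higher and 2 lower, against 2.47% of all genes tested (1.02% higher and 1.45% lower). NPC2 was lower by 1.32-fold, WIPI1 by 1.24-fold, and CTSZ was higher by 1.26-fold. The other 31 members did not pass. At an unadjusted p under 0.05 in this fit there were 5 members (14.7%), against 16.2% of all genes tested. With the 12 arrays taken as independent, 0 of 34 members and 0% of all genes passed, and 2 members, NPC2 (unadjusted p = 0.0152 in limma) and CTSZ (0.0334), had an unadjusted p under 0.05, against 1.5% of all genes.

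The members' differences lay on both sides of 0. SP minus non-SP was above 0 for 16 members and below 0 for 18, with a median of -0.021, beside a median of 0.0056 over all genes tested. The estimate was within 0.1 of 0 for 24 of 34 members (70.6%) and for 69.8% of all genes tested. Of the 34, 5 members (14.7%) had the same sign in all 6 pairs, against 10.7% of all genes tested: CTSZ, ATG7 and ATG16L1 were higher in each pair (6.03% of all genes), NPC2 and WIPI1 lower (4.68%). The mean over the 34 members was 0.07 in untreated pair 1, between -0.017 and -0.023 in untreated pairs 2 and 3, and between -0.014 and -0.051 in the anti-EpCAM pairs. In untreated pair 1, 25 members were higher in SP cells and 66.0% of all genes tested were too.

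**Figure D1:**
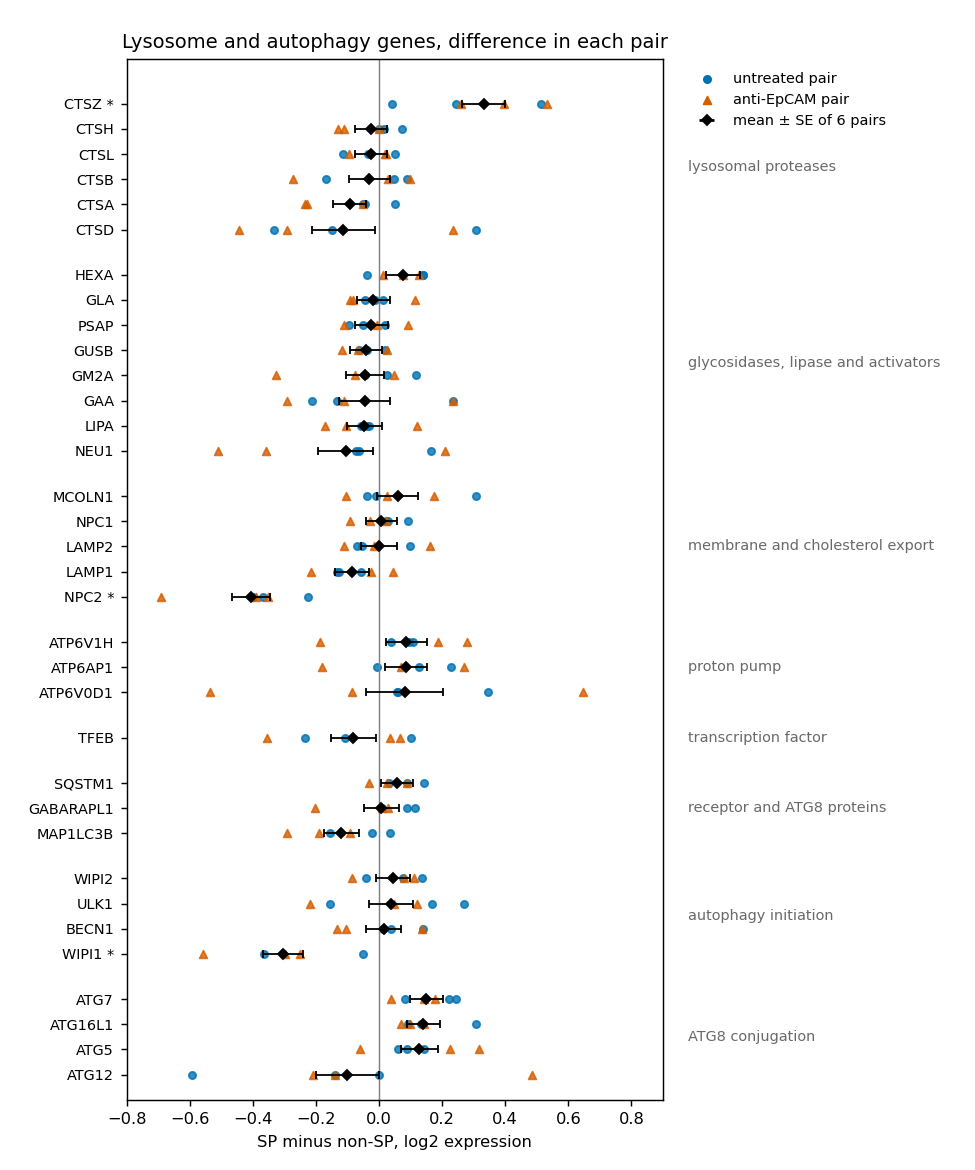
SP minus non-SP log2 expression (horizontal axis) of the 34 lysosome and autophagy genes, grouped by role. Each untreated pair is a circle, each anti-EpCAM pair a triangle and the mean of 6 pairs a diamond, with limma's moderated SE as bars. Asterisks mark the 3 genes at an adjusted p under 0.05, of which NPC2 and WIPI1 lie left of 0 and CTSZ right of 0 in all 6 pairs.

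The lysosomal proteases were led by CTSZ. In untreated cells its non-SP arrays read 10.21, 9.80 and 10.24 in replicates 1 to 3 and its SP arrays 10.46, 10.31 and 10.28. Under anti-EpCAM the non-SP arrays read 10.18, 10.36 and 9.72 and the SP arrays 10.58, 10.62 and 10.25. The SP array was the higher one in every pair, and under the antibody the fractions overlapped across replicates. In untreated cells the lowest SP array (10.28) stood only just above the highest non-SP array (10.24). These are deposited values, in which pairs look normalised separately. After quantile normalisation the untreated pair means were 10.46, 10.18 and 10.12. On that scale untreated arrays averaged 10.13 ± 0.21 in non-SP and 10.37 ± 0.22 in SP cells (SD, 3 arrays). Such means do not show if single arrays of the fractions overlap. The pair differences ran from 0.04 to 0.53, with a mean of 0.33 ± 0.07 (SE, 6 pairs; 95% interval 0.18 to 0.48; adjusted p = 0.0357, limma with Benjamini-Hochberg adjustment).

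This call on CTSZ rested on the full set of pairs and on 1 probe set. It was lost without untreated pair 1 (adjusted p = 0.0933) or 2 (0.104) and without anti-EpCAM pair 1 (0.0598), 2 (0.0911) or 3 (0.0862), with a difference of 0.27 to 0.37 in these 5 fits. A second, much dimmer CTSZ probe set, with a mean of 5.90, gave -0.12 ± 0.15 (SD, 6 pairs) and was lower in SP cells in 4 of 6 pairs. With the mean of both probe sets the difference was 0.11 (adjusted p = 0.371).

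Of the other 5 proteases none passed, and all 5 had estimates below 0. CTSD, the main aspartic protease of the lysosome, differed by -0.11 ± 0.10 (adjusted p = 0.631), with pair differences from -0.44 to 0.31. The serine carboxypeptidase CTSA, which also protects NEU1 and beta-galactosidase, differed by -0.09 ± 0.05 (adjusted p = 0.424). The cysteine proteases CTSB (-0.03), CTSL (-0.03) and CTSH (-0.03) lay near 0, and CTSB and CTSL were among the brightest members, with means of 12.76 and 12.85.

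Among 8 glycosidases, lipases and activator proteins 0 passed, with a median of -0.042. The sialidase NEU1 had the largest difference of these, at -0.11 ± 0.09 (SE, 6 pairs; adjusted p = 0.602). In non-SP arrays it read 8.32, 8.09 and 8.63 untreated and 8.62, 8.74 and 8.72 under anti-EpCAM. In SP arrays it read 8.48, 8.03 and 8.55 untreated and 8.11, 8.38 and 8.93 under anti-EpCAM. The fractions overlapped in both treatments, and NEU1 was higher in SP cells in 2 of 6 pairs. HEXA, a subunit of beta-hexosaminidase, was the only gene of this group with an estimate above 0, at 0.08 ± 0.05. The alpha-glucosidase GAA (-0.05), the acid lipase LIPA (-0.05), GM2A (-0.04), which presents the ganglioside GM2 to hexosaminidase, the beta-glucuronidase GUSB (-0.04), the saposin precursor PSAP (-0.03) and the alpha-galactosidase GLA (-0.02) were all closer to 0.

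NPC2 was the member with the smallest adjusted p. In untreated cells its non-SP arrays read 12.48, 12.37 and 12.06 and its SP arrays 12.25, 11.97 and 11.70. Under anti-EpCAM the non-SP arrays read 12.62, 12.49 and 12.19 and the SP arrays 12.26, 11.80 and 11.80. The SP array was the lower one in every pair, with differences of -0.69 to -0.23, although the ranges of the fractions overlapped across replicates. The mean difference was -0.41 ± 0.06 (SE, 6 pairs; 95% interval -0.54 to -0.27; adjusted p = 0.0114, limma with Benjamini-Hochberg adjustment). NPC2 passed in each of 6 fits that left out 1 pair, at -0.44 to -0.35 and adjusted p of 0.0155 to 0.0494. Without anti-EpCAM pairs 1 and 3 together it was at -0.51 ± 0.07 with an adjusted p of 0.0535. It has 1 probe set. In such sorted bulk samples, fewer cells that express a gene and less of its RNA per cell cannot be told apart.

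NPC1, the membrane protein that receives cholesterol from NPC2, did not pass. In non-SP arrays NPC1 read 10.67, 10.30 and 9.87 untreated and 10.70, 10.09 and 10.05 under anti-EpCAM. SP arrays read 10.70, 10.32 and 9.96 untreated and 10.67, 10.12 and 9.96 under anti-EpCAM. The arrays of a pair lay within 0.1 of each other while the 12 arrays spanned 0.82. The mean difference was 0.0067 ± 0.050 (SE, 6 pairs; adjusted p = 0.967) with a 95% interval of -0.10 to 0.12. The membrane glycoproteins LAMP1 (-0.09 ± 0.05) and LAMP2 (0.00093 ± 0.057) and the calcium channel MCOLN1 (0.06 ± 0.06) did not pass either. The other LAMP2 probe sets, all dimmer, had mean differences of -0.06, -0.14 and -0.10, each lower in SP cells in 5 of 6 pairs. Those of LAMP1, also dimmer, were at 0.03, -0.03 and 0.07.

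**Figure D2:**
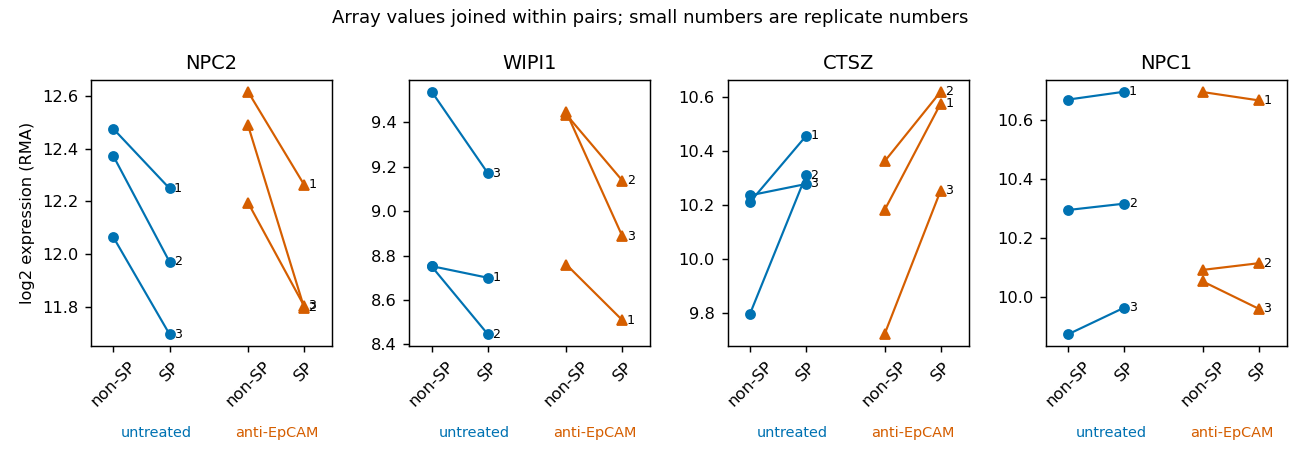
Log2 expression (vertical axis, a separate scale in each panel) of NPC2, WIPI1, CTSZ and NPC1 in non-SP and SP arrays, with untreated pairs as circles, anti-EpCAM pairs as triangles and a line for each pair. Lines of NPC2 and WIPI1 fall and lines of CTSZ rise from non-SP to SP in all 6 pairs, while NPC1 lines are nearly level.

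The 3 subunits of the proton pump had estimates of 0.08 to 0.09 and 0 passed. ATP6V1H, a regulatory subunit of the cytosolic part of the pump, differed by 0.09 ± 0.07 (SE, 6 pairs; adjusted p = 0.561). Its non-SP arrays read 9.63, 9.53 and 10.04 untreated and 9.53, 10.00 and 9.81 under anti-EpCAM, and its SP arrays 9.74, 9.57 and 10.14 untreated and 9.72, 10.28 and 9.62 under anti-EpCAM. It was higher in SP cells in 5 of 6 pairs, with overlapping fractions. The accessory subunit ATP6AP1 was at 0.08 ± 0.07.

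ATP6V0D1, a subunit of the part of the pump that sits in the membrane, had the widest spread between pairs of all 34 members. Its pair differences were 0.35, 0.06 and 0.06 in untreated pairs 1 to 3 and -0.54, -0.09 and 0.65 in anti-EpCAM pairs 1 to 3. The log2 ratio of the 3′ to the 5′ control probe sets of ACTB, a sign of RNA integrity for which a high value means fewer complete transcripts, differed between SP and non-SP by 1.86 in anti-EpCAM pair 1 and by -2.09 in anti-EpCAM pair 3. In the other 4 pairs it differed by -0.36 to 0.27. ATP6V0D1 was thus lower in the array of these 2 pairs that had the higher control ratio. With the GAPDH 3′ to 5′ control ratio as covariate, ATP6V0D1 was at 0.08 ± 0.05 (adjusted p = 0.449 in limma), against 0.08 ± 0.12 without it. In anti-EpCAM pairs 1 and 3, NEU1 differed in the same directions (-0.51 and 0.21) and CTSD in the opposite ones (0.23 and -0.44). Whether RNA integrity causes this spread was not tested.

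**Figure D3:**
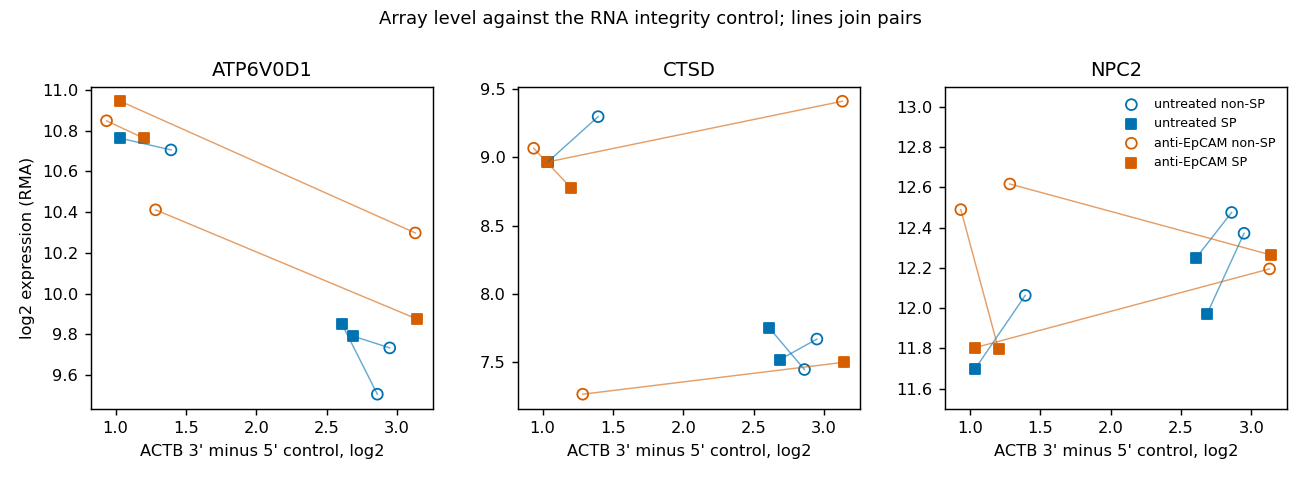
Log2 expression (vertical axes) of ATP6V0D1, CTSD and NPC2 in each array against the log2 ratio of the ACTB 3′ to 5′ control probe sets (horizontal axes), with lines joining the arrays of a pair. In anti-EpCAM pairs 1 and 3 the ratios of the 2 arrays differ by 1.86 and -2.09, and ATP6V0D1 falls with the ratio in both, while NPC2 is lower in the SP array of both.

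TFEB, the transcription factor of the list, was one of the dimmer members, with a mean of 7.42. In non-SP arrays TFEB read 7.48, 7.58 and 7.36 untreated and 7.17, 7.54 and 7.67 under anti-EpCAM. SP arrays read 7.58, 7.35 and 7.25 untreated and 7.23, 7.58 and 7.31 under anti-EpCAM. It was higher in SP cells in 3 pairs and lower in 3, and its mean difference was -0.08 ± 0.07 (SE, 6 pairs; adjusted p = 0.622), with a 95% interval of -0.24 to 0.08.

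The sequence that TFEB binds, an E-box with the core CACGTG, was looked for in the 250 bases before the start of each gene, on both strands, in the RefSeq promoter table for GRCh38.p14. A window was found for 30 of the 35 listed genes. CACGTG stood in the windows of 7 of these (23.3%), against 6.34% of all windows and 10.8% of tested genes with a window. The longer TCACGTGA, which contains it, stood in 5 (16.7%) and in 1.84% of tested genes, and the same letters with a further G in front and C behind in 2 (6.67%) and in 0.727%. The 2 genes with the longest form were GAA and MCOLN1. E-boxes of 5 members are shown as examples, with CACGTG in capitals and 8 bases on each side. Those of CTSD and NEU1 hold CACGTG without the longer TCACGTGA. ATP6V0D1 and CTSA, which hold TCACGTGA, are not shown.

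GAA, chr17:80101497-80101518, plus strand: ggccgcgtCACGTGacccaccg
GAA, chr17:80101542-80101563, plus strand: ccgccggtCACGTGacccgcct
MCOLN1, chr19:7522602-7522623, plus strand: taccgggtCACGTGaccgaggc
LAMP1, chr13:113297203-113297224, plus strand: cgcgggatCACGTGacgcccgg
CTSD, chr11:1763961-1763982, minus strand: gccgcgccCACGTGaccggtcc
NEU1, chr6:31862934-31862955, minus strand: tgcgtgatCACGTGggaggaga

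The 7 members with CACGTG (ATP6V0D1, CTSA, CTSD, GAA, LAMP1, MCOLN1 and NEU1) had SP minus non-SP estimates from -0.11 to 0.08, with a median of -0.086, and 0 of the 7 passed. The 22 measured members with a window but no CACGTG had a median of -0.0056 and included the 3 that passed. A match is a description of the letters and not of binding.

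The windows of NPC2, WIPI1 and CTSZ held no CACGTG. The 100 bases before a start are shown for each, since these 3 genes passed the test. For NPC2 the table holds a second start, whose 100 bases held 2 copies of the motif below and are not shown. Capitals mark GGGCGG, the core of a GC box, or its reverse complement CCGCCC.

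NPC2, chr14:74493513-74493612, minus strand: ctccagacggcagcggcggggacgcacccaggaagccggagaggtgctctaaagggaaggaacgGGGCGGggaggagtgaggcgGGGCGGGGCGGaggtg
WIPI1, chr17:68457497-68457596, minus strand: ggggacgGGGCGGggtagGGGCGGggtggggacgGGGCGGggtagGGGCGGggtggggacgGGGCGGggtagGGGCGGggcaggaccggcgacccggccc
CTSZ, chr20:59007255-59007354, minus strand: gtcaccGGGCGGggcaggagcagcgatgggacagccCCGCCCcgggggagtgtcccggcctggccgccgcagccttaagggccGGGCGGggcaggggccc

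The printed stretches held 3 copies in NPC2, 6 in WIPI1 and 3 in CTSZ. The motif is common: in the 250-base windows it stood in 26 of 30 members (86.7%) and in 70.6% of tested genes with a window. CCAAT stood in 10 of 30 members (33.3%) and in 40.5% of tested genes, and TGACTCA, the site of AP-1, in 0 of 30 and in 4.45% of tested genes.

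Among the cargo receptor and the ATG8 proteins, which coat the autophagosome, 0 of 3 passed. MAP1LC3B, the ATG8 protein most used as an autophagosome marker, differed by -0.12 ± 0.05 (SE, 6 pairs; adjusted p = 0.313). Its non-SP arrays read 10.17, 10.03 and 10.69 untreated and 10.43, 10.68 and 10.38 under anti-EpCAM. Its SP arrays read 10.21, 9.88 and 10.67 untreated and 10.14, 10.58 and 10.19 under anti-EpCAM. It was lower in SP cells in 5 of 6 pairs, untreated pair 1 being the other, and the fractions overlapped in both treatments.

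SQSTM1, the receptor known as p62 that ties ubiquitinated cargo to the ATG8 proteins, differed by 0.06 ± 0.05 (SE, 6 pairs; adjusted p = 0.626; 95% interval -0.05 to 0.17). Its non-SP arrays read 11.82, 11.63 and 11.60 untreated and 11.65, 11.65 and 11.62 under anti-EpCAM. Its SP arrays read 11.91, 11.66 and 11.75 untreated and 11.74, 11.62 and 11.65 under anti-EpCAM. SQSTM1 kept within a range of 0.30 over the 12 arrays in deposited values, and ran from 11.42 to 11.99 after quantile normalisation. It was higher in SP cells in 5 of 6 pairs. Its other probe sets above the filter, all dimmer, had mean differences of 0.22, 0.05, -0.15 and -0.36. GABARAPL1, a second ATG8 protein, was at 0.0075 ± 0.054.

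Of the 4 genes that start the autophagosome, WIPI1 passed. In untreated cells its non-SP arrays read 8.75, 8.75 and 9.54 and its SP arrays 8.70, 8.45 and 9.17. Under anti-EpCAM the non-SP arrays read 8.76, 9.43 and 9.45 and the SP arrays 8.51, 9.14 and 8.89. Every SP array was below its non-SP partner, at -0.052 in untreated pair 1 and at -0.56 to -0.25 in the other 5, and the fractions overlapped across replicates. The mean difference was -0.30 ± 0.06 (SE, 6 pairs; 95% interval -0.45 to -0.16; adjusted p = 0.0373, limma with Benjamini-Hochberg adjustment).

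The call on WIPI1 was lost without untreated pair 2 (adjusted p = 0.109) or 3 (0.172) and without anti-EpCAM pair 2 (0.107) or 3 (0.083), at -0.32 to -0.26 in these 4 fits. A second WIPI1 probe set, with a mean of 8.11, gave -0.09 ± 0.15 (SD, 6 pairs) and was lower in SP cells in 4 of 6 pairs. With the mean of both probe sets the difference was -0.20 (adjusted p = 0.104). Its paralog WIPI2, which recruits ATG16L1, was at 0.05 ± 0.05. The kinase ULK1 (0.04 ± 0.07) and BECN1 (0.01 ± 0.06), a subunit of the lipid kinase complex that makes phosphatidylinositol 3-phosphate, did not pass.

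The genes that attach ATG8 proteins to lipid had a median of 0.13, and 0 of 4 passed. ATG7, the activating enzyme of both conjugation reactions, was at 0.15 ± 0.05 (SE, 6 pairs; adjusted p = 0.187). Non-SP arrays of ATG7 read 7.87, 8.003 and 8.39 untreated and 8.02, 8.41 and 8.42 under anti-EpCAM. SP arrays of ATG7 read 8.09, 8.08 and 8.63 untreated and 8.06, 8.58 and 8.56 under anti-EpCAM. The SP array was the higher in 6 of 6 pairs, by 0.04 to 0.24, with overlapping fractions.

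ATG16L1, which sets the site of lipid attachment, was at 0.14 ± 0.05 (adjusted p = 0.222) and also higher in 6 of 6 pairs. ATG5, its direct partner, was at 0.13 ± 0.06 (adjusted p = 0.330) and higher in 5 of 6. ATG12, the ubiquitin-like protein joined to ATG5, was at -0.10 ± 0.10 (adjusted p = 0.677), with pair differences from -0.59 to 0.48.

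The fraction difference was next compared between untreated and treated cells. With 3 pairs each, 0 of 34 members passed in untreated cells, where 0.0956% of all genes tested did, and 0 of 34 under anti-EpCAM, where 0.246% did. At an unadjusted p under 0.05 there were 5 members in each treatment, which is 14.7% of the members, against 8.88% of all genes untreated and 10.5% under the antibody. NPC2 was at -0.33 ± 0.09 untreated (adjusted p = 0.243) and at -0.48 ± 0.09 treated (0.0584). CTSZ was at 0.27 ± 0.10 untreated and 0.40 ± 0.10 treated, and WIPI1 at -0.24 ± 0.09 and -0.37 ± 0.09. The NPC2 estimate passed under anti-EpCAM when limma's variance followed the expression level with robust weights, the only member to do so.

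The difference between the treatments was itself tested and passed for 0 of 34 members and 0% of all genes tested. At an unadjusted p under 0.05 it counted 0 members and 1.7% of all genes. Treated minus untreated, the SP minus non-SP difference changed by -0.15 ± 0.12 for NPC2 (95% interval -0.42 to 0.12), by 0.13 ± 0.14 for CTSZ (-0.18 to 0.43) and by -0.13 ± 0.13 for WIPI1 (-0.41 to 0.16). The widest estimates were 0.29 ± 0.20 for ATG12 and -0.23 ± 0.17 for NEU1.

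**Figure D4:**
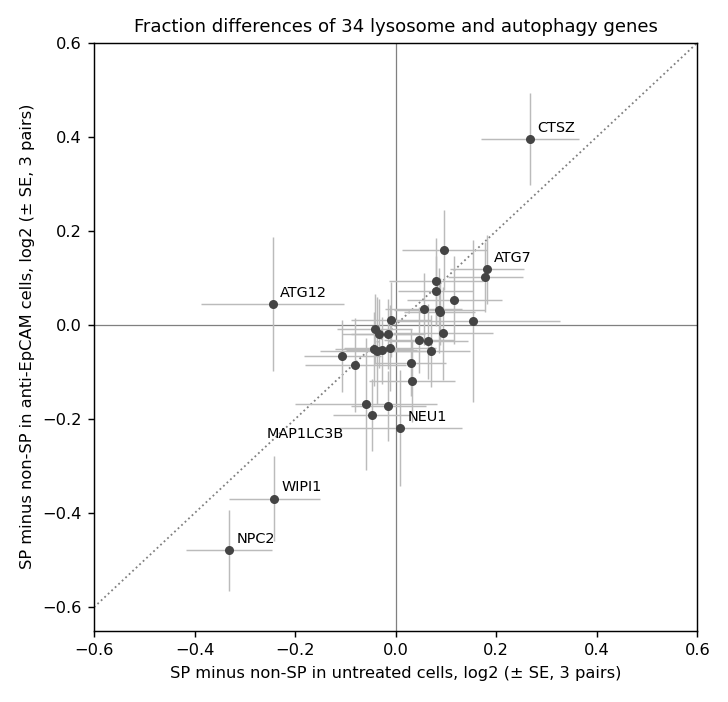
SP minus non-SP log2 difference of the 34 genes in untreated cells (horizontal axis) and under anti-EpCAM (vertical axis), each the mean of 3 pairs with its SE as bars; the dotted line marks equal differences. NPC2 and WIPI1 lie below 0 and CTSZ above 0 on both axes, while most genes lie within 0.2 of 0.

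The antibody comparison itself used pair means over both fractions, 3 treated against 3 untreated, after quantile normalisation over the 12 arrays. In limma 0 of 34 members and 0% of all genes tested passed, and 0 of 34 had an unadjusted p under 0.05, against 1.46% of all genes. Treated minus untreated ran from -0.40 ± 0.21 for ATG12 to 0.39 ± 0.22 for ATP6V0D1. NPC2 was at 0.0011 ± 0.23, CTSZ at -0.0026 ± 0.18 and WIPI1 at 0.07 ± 0.15, with 95% intervals of -0.54 to 0.54, -0.43 to 0.42 and -0.29 to 0.42. The direction of small antibody differences depended on the scale: 18 of 34 members were higher in treated cells after quantile normalisation, 28 in the deposited values and 11 after centring on the median, where the median of all genes tested stood at 0.012, 0.091 and -0.041.

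Antibody differences within each fraction are given as values only. In non-SP cells ATG12 was at -0.56, ATP6V0D1 at 0.45 and CTSD at 0.39, and in SP cells ATP6V0D1 was at 0.33, CTSD at 0.27, GAA at 0.26 and ATG12 at -0.25.

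The level of many of these genes varied more from pair to pair than the difference between fractions did. The SD between the 6 pair means, after quantile normalisation, was larger than the SD of the 6 pair differences in deposited values for 27 of 34 members (79.4%) and for 63.3% of all genes tested. CTSD was the extreme, with an SD between pair means of 0.67. Its arrays read 7.27 to 7.75 in untreated pairs 1 and 2 and anti-EpCAM pair 1, and 8.77 to 9.41 in untreated pair 3 and anti-EpCAM pairs 2 and 3, in both fractions. NPC1 had an SD of 0.47 between pair means and of 0.062 between pair differences.

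Other genes of the pathway were counted from 6 lists that do not hold the 34. Of 156 tested, 1 was higher and 4 lower in SP cells at an adjusted p under 0.05 (3.21%, against 2.47% of all genes tested), with 59 estimates above and 97 below 0 and a median of -0.021. Over all genes tested, 47.6% of estimates were below 0 and the median was 0.0056. The lists were chosen with earlier results of these data known, so their counts are a description and not a test. Of 29 other hydrolases, 2 were lower: CTSK, a collagen-degrading cathepsin, at -0.34 ± 0.06 (adjusted p = 0.0190) and IDUA, an iduronidase of heparan and dermatan sulfate, at -0.37 ± 0.08 (0.0446). Of 47 other autophagy genes, 2 were lower: TP53INP1, a p53 target, at -0.40 ± 0.06 (0.00999) and TP53INP2 at -0.30 ± 0.06 (0.0349), both of which bind ATG8 proteins. Each of these 4 was lower in 6 of 6 pairs.

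TP53INP1 passed in 6 of 6 fits that left out 1 pair. CTSK was lost without untreated pair 1 (adjusted p = 0.0575) or 3 (0.0882), and TP53INP2 in 4 of 6 fits, up to 0.167 without untreated pair 3. IDUA kept its call only without anti-EpCAM pair 1, with up to 0.182 without untreated pair 3. Without anti-EpCAM pairs 1 and 3 together, TP53INP1 (-0.35, adjusted p = 0.0901), CTSK (-0.25, 0.108), TP53INP2 (-0.37, 0.0920) and IDUA (-0.48, 0.0814) were all lost. With the mean of a gene's probe sets TP53INP1 was at -0.22 (adjusted p = 0.0704) and IDUA at -0.09 (0.449). IDUA was also lost with the GAPDH control ratio as covariate (adjusted p = 0.0592) and with no filter on low values (0.0555).

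Of 25 genes of the MiT factors, mTORC1 and lysosomal nutrient sensing, DDIT4, an inhibitor of mTORC1, was higher by 0.29 ± 0.06 (adjusted p = 0.0274) in 6 of 6 pairs. It was lost whichever pair was left out, at an adjusted p of 0.0529 to 0.124, and without anti-EpCAM pairs 1 and 3 together (0.138). None of 23 other membrane proteins passed, with TPCN1 at -0.19 ± 0.06 (adjusted p = 0.165) and HGSNAT at -0.21 ± 0.07 (0.173) nearest. None of 13 other pump subunits passed, with ATP6V1G1 at -0.15 ± 0.07 and ATP6V0A2 at 0.12 ± 0.06. None of 19 sorting genes passed, with GNPTG, a subunit of the enzyme that makes the mannose 6-phosphate tag, at -0.20 ± 0.06 (adjusted p = 0.107) and VPS11 at -0.12 ± 0.07.

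Of 7 cystatins and other protease inhibitors 0 passed, with a median of -0.16 and CST2 at -0.18 ± 0.06 and CSTB, which inhibits cysteine cathepsins, at -0.16 ± 0.06 (adjusted p = 0.236). Of 13 genes of cholesterol synthesis and uptake 0 passed. HMGCS1, an early enzyme of that synthesis, was at 0.28 ± 0.07 (adjusted p = 0.0922) and higher in 6 of 6 pairs, and SC5D at 0.11 ± 0.07.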

How the data were processed

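The members and gene lists were chosen with earlier results of these data known. Deposited values are log2 expression per probe set, made by the authors with RMA per the submitters' processing notes; version and arrays processed together are not given in the sources used here. Of 54613 probe sets without the 62 controls, 41091 carried 1 gene symbol in the probe table, 1801 several and 11721 none. Each gene took its probe set of highest mean over 12 arrays and was tested where that mean exceeded the 40th percentile (5.39).

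For SP minus non-SP, limma (3.58.1, under R 4.3.3) was run on the 6 within-pair differences of deposited values, with a mean for each treatment, two-sided, Benjamini-Hochberg adjusted over 14649 genes, passing under 0.05. The antibody was tested on pair means after quantile normalisation. The fits were also run on simulated data with pairs drawn as independent, which cannot show how they behave if real pairs are dependent. The SP and non-SP arrays of a number correlated in their deviations from group means (r = 0.62 to 0.89), and so did treated and untreated arrays of number 1 (0.73 in non-SP, 0.71 in SP) and 3 (0.60 and 0.64), but not of number 2 (-0.11 and -0.18), so numbers were not used to pair treatments. The sorted values of such a pair differed by 0.00933 to 0.0215 on average, and those of other arrays by 0.0458 to 0.525, so the pairs look normalised separately. The labels do not say that a pair shares a sort, and shared sorting and shared processing cannot be told apart. P-values rest on the spread between these 6 pairs, moderated in limma over all genes tested. Independence of the pairs was not tested, and the number of arrays limits the precision. Array medians were 5.58 to 6.24.

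Named in full were members that passed, the largest difference in each role, TFEB, NPC1 and SQSTM1; from other pathway lists up to 4 passing genes, or the 2 of smallest p. COL1A1, ABCG2 and other genes outside these were chosen after their values were seen. Alternatives were quantile normalisation, other filters, probe set means, trended variance, the GAPDH 3′ to 5′ control ratio as covariate, no pairing, and each pair left out.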

Additional observations from a re-analysis of the deposited data

Results flagged for a closer look

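For GABARAPL1, an ATG8 protein, SP minus non-SP stood apart in anti-EpCAM pair 2, at -0.20, while the other 5 pairs ran from 0.0091 to 0.11. For ATG16L1, SP minus non-SP in untreated pair 1 was 0.31, while the other 5 pairs ran from 0.070 to 0.14. Each was found by the gap to the nearest pair over the whole range, against Dixon's 95% critical value for 6 values. The test was made for 34 members, and chance marks about 1 in 20 values that have no such pair.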

How the results depend on the processing

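Without the pairing (no replicate block, 12 arrays as independent), 0 genes and 0 members passed over both treatments, in untreated and in treated cells; over both, 220 genes and 2 members had an unadjusted p under 0.05, and the smallest adjusted p was 0.157 over all genes. NPC2 was then at -0.41 ± 0.14 and CTSZ at 0.33 ± 0.14. With the pairs, 362 genes and 3 members passed over both treatments, 14 genes in untreated and 36 in treated cells. Leaving out 1 pair gave 72 to 430 genes and 1 to 2 members over both, 0 to 16 genes untreated and 0 to 32 treated. Without anti-EpCAM pairs 1 and 3, 27 genes and 0 members passed over both and 0 genes under anti-EpCAM. With the mean of a gene's probe sets 1 member passed over both, and 13 genes under anti-EpCAM. Trended, robust variance gave 61 genes untreated, 90 genes and 1 member treated. The GAPDH ratio gave 5 and 13, and no filter 14 under anti-EpCAM. For the antibody, 12 independent arrays gave 1 gene.

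No member that passed changed sign in any alternative run. Leaving out 1 pair gave estimates on both sides of 0 for CTSB (-0.0671 to 0.025), GAA (-0.1185 to 0.0131), GLA (-0.0513 to 0.0001), PSAP (-0.0504 to 0.0006), GM2A (-0.0851 to 0.0083), NPC1 (-0.0072 to 0.0217), LAMP2 (-0.0368 to 0.0319), ATP6V0D1 (-0.0786 to 0.2171), GABARAPL1 (-0.0133 to 0.0444), ULK1 (-0.0058 to 0.1002) and BECN1 (-0.028 to 0.0391). Leaving out anti-EpCAM pairs 1 and 3 turned CTSB (0.0077), CTSH (0.0154), LIPA (0.0388), GABARAPL1 (-0.0665) and ULK1 (-0.0627). Probe set means turned PSAP (0.0766), LAMP2 (-0.0752), SQSTM1 (-0.0358) and WIPI2 (-0.0091), and quantile normalisation LAMP2 (-0.0185) and GABARAPL1 (-0.0048). Of 18 members with more than 1 probe set above the filter, 10 had probe sets with mean differences of both signs. The cause was not tested.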

Other observations

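Immediate-early and dissociation stress genes are transcripts that rise within minutes of handling or growth signals. Of 19 tested, 6 were higher and 0 lower in SP cells at an adjusted p under 0.05, against 1.02% higher and 1.45% lower of all genes tested. This list was chosen with earlier results of these data known, so its counts are a description and not a test. Estimates were above 0 for 16 and below 0 for 3, with a median of 0.17, beside 0.0056 over all genes. NR4A3, an orphan nuclear receptor, was higher by 0.70 ± 0.08 (SE, 6 pairs; adjusted p = 0.00378 in limma), ATF3 by 0.56 ± 0.06 (0.00229), EGR1 by 0.53 ± 0.06 (0.00378) and FOS by 0.45 ± 0.05 (0.00378), each in 6 of 6 pairs. Their part in the differences of NPC2, WIPI1 and CTSZ was not tested.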
